A study of Mus musculus with 21 samples.

Results

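Trimethylation of lysine 36 on histone H3 (H3K36me3) was compared between wild-type (WT) C2C12 cells and 2 lines labelled Setd2 knockout (KO), all at day 5 under methionine restriction. The 4 libraries were chosen by label from the 20 H3K36me3 libraries of the study: both WT replicates, 1 library of KO line 1 and 1 library of KO line 2. C2C12 is a mouse myoblast line that fuses into muscle fibres in culture, and the 4 libraries share cell line, day and medium and differ in Setd2 genotype and line. The study also sampled days 0 and 1 and a control medium, with the assay being chromatin immunoprecipitation followed by sequencing (ChIP-seq). How the KO lines were made, whether each is a clone, and the methionine content of the medium are not given in the sources used here. SETD2 protein was not measured, and nothing states that the WT replicates came from separate cultures.

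SETD2 is a methyltransferase that travels with elongating RNA polymerase II and trimethylates H3K36 over the bodies of transcribed genes. The mark therefore lies inside genes, usually denser toward the 3′ end, and is read by factors that act in splicing, DNA repair, DNA methylation and the silencing of internal start sites. Enzymes of the NSD family and ASH1L place the lower methylation states of the same lysine. All of these enzymes use S-adenosylmethionine, the methyl donor that cells build from methionine.

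The measure used throughout is cover, the percent of a gene body or of a class of sequence that lies inside called peaks. It follows the place and the reach of called peaks and does not measure the amount of the mark, and the read depth of the libraries is unknown. In bulk chromatin, fewer cells with the mark and less mark per cell cannot be told apart. Among 8 markers of myoblasts and muscle, 4 had a peak in each WT library and in line 1, with Itga7, an integrin of muscle cells, at 74.0% and 75.7% in WT and 59.2% in line 1, although other genes overlap 58.2% of its body. Cdh15, a cadherin of myoblasts, was at 73.2% and 74.3% in WT and 11.2% in line 1, and the median of the 8 was 11.9% and 13.4% in WT and 1.12% in line 1. Des, desmin, was at 43.9% and 42.6% in WT and 39.7% in line 1. Its direction turned with the setting: no line 1 peak on it reached a −log10 q of 3, but line 1 was 39.65 points above the WT mean with shortened WT lists. None of the 8 had a peak in line 2, so its cell type could not be checked from its peaks. Of 10 markers of other cell types, 0 had a peak in WT or line 2, and 2 had one in line 1, covering 0.253% of Ptprc and 0.483% of Pecam1.

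The Setd2 gene itself (chr9:110532500-110618633 on GRCm38, 86134 bp) was covered to 55.6% and 60.7% in the WT libraries, 2.67% in line 1 and 0% in line 2. The KO libraries lay below both WT libraries. The difference of KO minus WT was -56.8 points (SE 2.69), with an adjusted p of 0.00106 by limma with Benjamini-Hochberg adjustment. With the WT lists shortened to the covered length of line 1, keeping the strongest peaks, line 1 minus WT went from -55.5 to -11.2 points.

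Both KO lines had far less peak cover than WT, and they differed from each other as well. The WT libraries had 63608 and 63423 peaks that covered 131.3 and 134.2 Mb. Line 1 had 52487 peaks over 45.8 Mb, and line 2 had 13880 peaks over 7.13 Mb. Line 1 thus had most of the number of peaks of WT in 34.5% of its length, and line 2 had 5.37% of the WT length. The median peak was 842 and 839 bp wide in WT, 539 bp in line 1 and 404 bp in line 2. Peaks of at least 5 kb, the wide domains typical of the mark over genes, numbered 6186 and 6408 in WT, 706 in line 1 and 8 in line 2.

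At the authors' threshold the lower cover of both lines lay in genes, not between them. Protein-coding gene bodies were covered to 12.2% and 12.4% in WT, 3.22% in line 1 and 0.148% in line 2. The mean of the WT libraries was 3.82 times that of line 1 and 83.0 times that of line 2. Intergenic sequence was covered to 0.341% and 0.354% in WT, 0.706% in line 1 and 0.341% in line 2. Line 1 therefore had 2.03 times the WT mean between genes, while line 2 lay at 98.2% of it. With 2 libraries against 2, the exact two-sided permutation test has 6 arrangements and cannot give less than p = 0.333. This exact test gave that smallest value for covered length, coding cover and the number of genes at least 50% covered, and p = 0.667 for intergenic cover. The intergenic excess of line 1 depended on which peaks were counted. With only peaks of a −log10 q of at least 3, intergenic cover was 0.214% and 0.227% in WT, 0.169% in line 1 and 0.0273% in line 2, so both lines lay below WT. That limit left 95.8 and 100.7 Mb of 131.3 and 134.2 Mb in WT, but 15.2 of 45.8 Mb in line 1. With the WT lists shortened to the line 1 length, which removes WT peaks only, WT was at 0.0969% and 0.101% and line 1 at 0.706%.

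**Figure D1:**
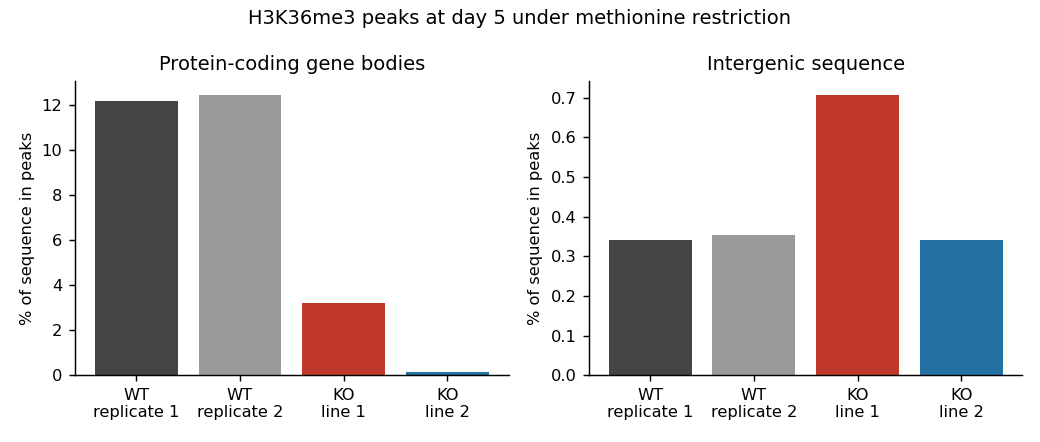
Percent of protein-coding gene body sequence (left) and of intergenic sequence (right) inside H3K36me3 peaks, 1 bar per library, without error bars because each bar is 1 library. Coding cover is 12.2% and 12.4% in WT, 3.22% in line 1 and 0.148% in line 2, while intergenic cover is highest in line 1 at 0.706%.

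The position of the peaks separated the lines further. Of the bases in line 1 peaks, 34.3% lay in peaks of both WT libraries and 58.5% in no WT peak. Of the bases in line 2 peaks, 0.721% lay in peaks of both WT libraries and 98.8% in none. For scale, peaks of both WT libraries occupied 4.03% of the chromosomes. The 2 WT libraries held 83.1% and 81.2% of each other's bases. The lines shared 1.51 Mb, which was 3.29% of line 1 and 21.1% of line 2. Genes held 96.2% of the covered bases in each WT library, 77.5% in line 1 and 30.3% in line 2, where genes of all kinds make up 46.1% of the chromosomes.

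In WT cells the covered genes numbered 9967 and 9983 of 21887 protein-coding genes, against 6198 in line 1 and 959 in line 2. Genes with at least 50% cover, called marked below, numbered 3303 and 3412 in WT, 665 in line 1 and 3 in line 2. Across the 4 libraries limma tested 8420 genes whose mean cover reached 5%, and 6399 of them (76.0%) had less cover in KO than in WT. In the other direction 8 genes (0.095%) had more. The filter uses the same 4 libraries, so a gene can pass it through WT or KO cover alone. With any cover in place of the 5% filter, limma called 7105 of 11682 genes as lower and 48 as higher. With the WT lists shortened it called 1484 of 4218 as lower and 6 as higher. The 76.0% thus holds for the main setting only. Leaving out WT replicate 1 or WT replicate 2 left 4557 and 4504 genes with less, and 0 with more by limma in each case, with 1 gene at an unadjusted p under 0.05. In this fit the spread within KO is the difference between the lines, so a gene kept by 1 line alone is seldom called.

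Each line was therefore also set against WT by a fixed gap. Line 1 lay at least 25 points below both WT libraries in 4720 genes (21.6%) and at least 25 points above both in 403 genes (1.84%). Line 2 lay that far below in 5772 genes (26.4%) and that far above in 7 genes (0.032%). Only a gene with at least 25% cover in both WT libraries can lie that far below. In the WT libraries 6028 and 6113 genes reached 25%, so a list rich in WT-covered genes has more room below. In 99 of the 403 genes above in line 1, line 2 was at least 25 points below both WT libraries, a share of 24.6% that is near the 26.4% of all genes. With 1 library a line, these counts have no test of their own. With the WT lists shortened to the covered length of line 1, the counts below WT dropped to 1524 in line 1 and 1996 in line 2, and the count above in line 1 went to 850.

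Many genes that WT covered almost whole had no peak at all in KO. Over all protein-coding genes 28.3% had any peak in line 1 and 4.38% in line 2, so a gene without one was common in both lines. Of 91 genes covered to at least 90% in both WT libraries, 33 were at 0 in line 1, 90 were at 0 in line 2 and 33 were at 0 in both. The 6 longest of these 33 were chosen by these values and are given as description. Utp20, a factor of ribosomal RNA processing (chr10:88746607-88826814), was covered to 96.9% and 97.6% in WT and had no peak in either line. Zfyve26, a protein of endosomes and lysosomes (chr12:79232346-79296323), was at 90.3% and 91.2% in WT and 0% in both lines. Gemin5, which binds small nuclear RNAs for the assembly of splicing particles, was at 95.6% and 95.0% in WT and 0% in both lines. Golga1, a golgin of the Golgi, Mcm3ap, which acts in the export of mRNA, and Dhx29, a helicase of translation initiation, made up the rest. Their WT cover was 90.8% to 95.0%, and both KO libraries were at 0.

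Among all 3095 genes marked in both WT libraries, 3058 (98.8%) had no peak in line 2, and the highest line 2 cover of any of them was 4.35%. In line 1, 1273 (41.1%) had no peak, 297 (9.60%) were still marked and the median cover was 2.10%. For scale, 28.3% of all protein-coding genes had a peak in line 1 and 4.38% in line 2. WT-marked genes therefore lacked a line 1 peak less often than genes at large, and in line 2 a peak was rare in both. Line 1 thus kept a minority of the WT domains and small patches in many other genes. What was left also varied with gene length. Of the 157 marked WT genes under 5 kb, 69.4% had no line 1 peak and 15.3% were still marked. Of the 77 genes of at least 100 kb, 26.0% had no line 1 peak and 5.19% were still marked. Both shares were lower in the longest than in the shortest class, while the WT medians were 64.9% and 65.9% in the shortest class and 62.5% and 64.8% in the longest. A longer body offers more room for a peak, and the part of length in this result was not tested.

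**Figure D2:**
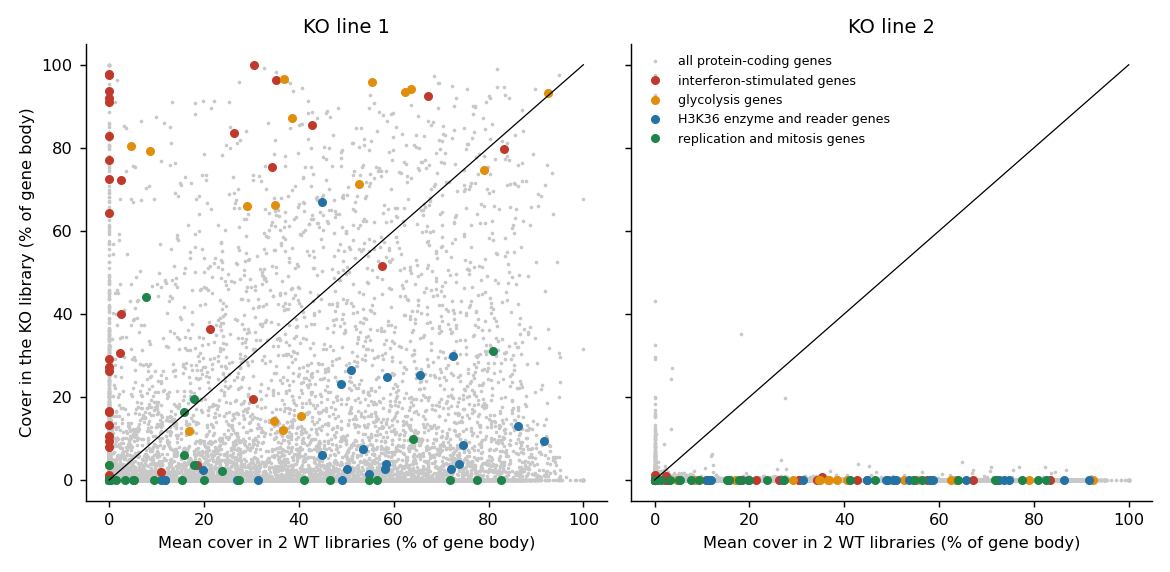
Cover of each protein-coding gene in KO line 1 (left) and KO line 2 (right) against the mean of the 2 WT libraries, in percent of the gene body; the line marks equal cover and coloured points are genes of 4 lists. Line 1 holds genes on both sides of the line, with interferon-stimulated genes up the left edge, while in line 2 the genes of WT cover lie along 0.

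Along the gene body, line 1 lay below WT in every bin but the first in genes that WT marks. RefSeq promoters gave a strand for 17492 protein-coding genes, and bodies of at least 10 kb were split into 20 equal bins. In 2079 genes marked in both WT libraries, mean cover climbed from 1.31% and 1.47% in the first bin to 89.4% and 90.5% at 60 to 65% of the length, with 76.9% and 78.2% in the last bin. Line 1 went from 1.59% through 16.6% to 7.62% in the same bins, and line 2 stayed at or below 0.0388% throughout. The 2079 genes were selected for their WT cover, so the high WT level is fixed by the choice. In 146 genes at least 25 points above WT in line 1, WT cover was densest near the 3′ end, with 2.80% and 1.62% at 15 to 20% of the length and 45.2% and 47.8% at 90 to 95%. Line 1 was at 64.7% and 71.5% in these 2 bins. These genes were selected for their line 1 cover, so its level is fixed by the choice. In the first bin line 1 was at 23.1% and WT at 0.285% and 0.344%.

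**Figure D3:**
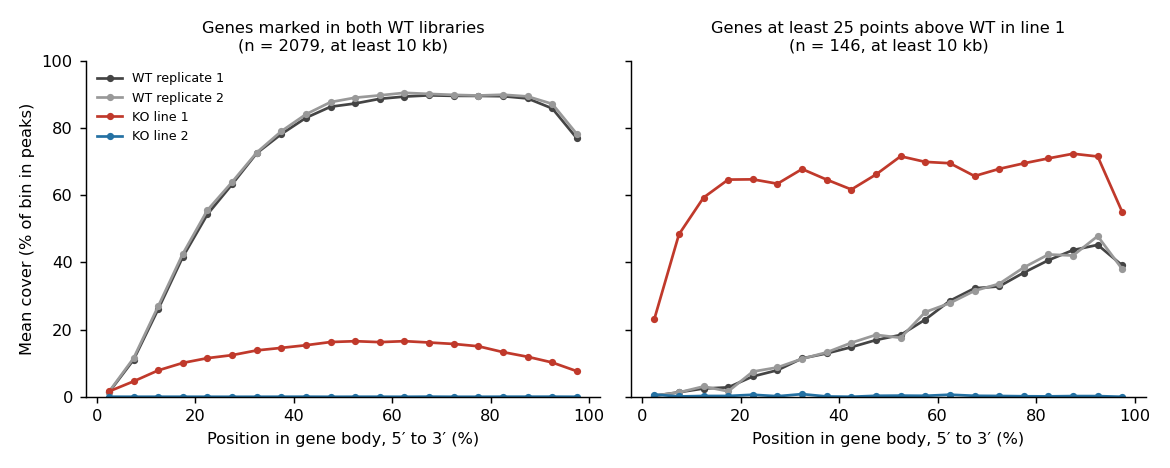
Mean cover in 20 bins from the 5′ to the 3′ end of genes of at least 10 kb, for 2079 genes marked in both WT libraries (left) and 146 genes at least 25 points above WT in line 1 (right), 1 curve per library. On the left WT reaches about 90% and line 1 at most 16.6%, and on the right line 1 is already at 64.7% where WT is at 2.80% and 1.62%.

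Genes of H3K36 methylation itself had the largest median deficit in line 1 of the lists examined, at -38.8 points against the WT mean. In a list of 27 enzymes and readers of the mark, the medians were 49.7% and 50.7% in WT, 2.70% in line 1 and 0% in line 2. Over all protein-coding genes the median was 0% in each of the 4 libraries. Line 1 was at least 25 points below WT in 17 of the 27 and above in 0, and limma called 22 of 24 tested genes as lower in KO and 0 as higher. Over all genes the shares were 21.6% below in line 1 and 76.0% lower by limma. A WT peak was present in 24 and 25 of the 27, against 45.5% and 45.6% of all genes, so more of the list could lie below. Glyr1, a reader of the mark that binds nucleosomes, was at 92.1% and 91.2% in WT, 9.37% in line 1 and 0% in line 2. Nsd1, which makes the dimethylated state, was at 70.7% and 73.5% in WT and 2.60% in line 1. Kdm4a, a demethylase of trimethylated H3K36, was at 86.8% and 85.9% in WT and 13.1% in line 1. Both lines lay below both WT libraries for each of these. Morf4l1, a chromodomain reader, was the member with the highest line 1 cover, 66.9% against 42.5% and 47.1% in WT, and the only one of the list above WT in line 1.

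Genes of the methionine cycle and its branches, which supply the methyl donor, had lower medians in both lines. Over 19 genes the medians were 45.01% and 42.9% in WT, 5.55% in line 1 and 0% in line 2. Line 1 was at least 25 points below WT in 9 and above in 0, against 21.6% and 1.84% of all genes. A peak was present in 17 of the 19 in each WT library, against 45.5% and 45.6% of all genes, so more of the list could lie below. Limma called 11 of 16 tested genes as lower, against 76.0% of all genes tested. Mtr, methionine synthase, was at 87.2% and 88.4% in WT and 12.2% in line 1. Mtrr, which reactivates that enzyme, was at 78.2% and 72.5% in WT and 0% in line 1. Mat2a, which makes S-adenosylmethionine, went the other way, with 73.6% and 71.0% in WT and 82.3% in line 1, beyond both WT libraries by less than 25 points. All of these were at 0 in line 2. Another gene covers 21.3% of the Mat2a body, so part of this cover may belong to its neighbour.

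Genes of DNA replication and mitosis lay below both WT libraries in line 1 in 18 of 26 cases, against 38.7% of all genes. A gene without WT cover cannot lie below WT. A WT peak was present in 21 and 23 of the 26, against 45.5% and 45.6% of all genes. The shares are therefore not on a like base. The medians of 26 genes were 19% and 21.5% in WT and 0% in each KO line, with 10 genes at least 25 points below WT in line 1 and 1 above, against 21.6% and 1.84% of all genes. Limma called 13 of 18 tested as lower, a share near the 76.0% of all genes tested. Rrm1, a subunit of ribonucleotide reductase, was at 80.9% and 84.2% in WT, and Mcm4, a subunit of the replicative helicase, was at 74.4% and 80.7%. Neither had a peak in either KO line. Mcm6, of the same helicase, kept 31.0% in line 1 against 80.6% and 81.2%, but it lay above WT once the WT lists were shortened, and there the difference of Mcm4 was 0. The gene above WT was Ccnd1, cyclin D1, at 44.0% in line 1 against 11.4% and 4.10%.

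Contractile and muscle genes varied widely among themselves. Over 38 genes the medians were 17.8% and 20.5% in WT, 2.55% in line 1 and 0% in line 2, with 9 genes at least 25 points below WT in line 1 and 0 above. The 9 are a share near the 21.6% of all genes, and 1.84% of all genes were above. Limma called 12 of 24 tested as lower, a smaller share than the 76.0% of all genes tested. Ryr1, the calcium release channel of skeletal muscle, was at 76.7% and 75.6% in WT and 0.615% in line 1. Neb, nebulin of the thin filament, was at 81.2% and 84.5% in WT and 14.4% in line 1. With shortened WT lists the line 1 differences of Ryr1 and Neb were -8.95 and -12.1 points. Ttn, the giant spring protein titin over a gene of 278578 bp, kept 73.8% in line 1 against 93.5% and 93.4%, and 47.8% with a −log10 q of at least 3. All 3 were at 0 in line 2. Of 17 myogenic regulators, line 1 was at least 25 points above WT in 1 and below in 0, against 1.84% and 21.6% of all genes. Their medians were 0.675% and 1.62% in WT, and line 2 lay that far below in 2. Few of them thus had enough WT cover to lie 25 points below.

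Of 23 amino acid stress genes, 9 were at least 25 points below WT in line 1 and 3 above, against 21.6% and 1.84% of all genes. Limma called 11 of 19 tested as lower, against 76.0% of all genes tested. Psat1, of serine synthesis, was at 80.2% and 80.3% in WT and 0% in line 1. Slc38a2, an amino acid transporter, was at 63.1% and 64.2% in WT and 90.3% in line 1. Ddit4, an inhibitor of mTORC1 signalling (chr10, 2096 bp long), was at 0% in both WT libraries and 92.0% in line 1. The list therefore held genes on both sides of WT, and line 2 had no peak in any of its 23 genes.

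Genes of splicing and of translation initiation or elongation were more often far below than far above WT in line 1, as all genes were, while for ribosomal protein genes the order was the opposite. Over all genes 21.6% were at least 25 points below and 1.84% above. Of 28 splicing factor genes 10 were at least 25 points below WT and 2 above, and of 25 translation factor genes 8 were below and 1 above. Limma called 8 of 27 and 9 of 24 tested as lower and 0 as higher, against 76.0% lower over all genes tested. Sf3b2, of the U2 particle, was at 82.9% and 86.1% in WT and 8.40% in line 1, whereas Ddx17, an RNA helicase, was at 85.7% and 88.7% in WT and 84.0% in line 1. Eif2s1, a subunit of the initiator tRNA carrier, was at 72.6% and 75.0% in WT and 0% in line 1. Eef1a1, the elongation factor that brings tRNA to the ribosome, was at 66.0% and 70.9% in WT and 97.2% in line 1. Of 75 ribosomal protein genes line 1 was at least 25 points above WT in 10 and below in 4, and limma called 3 of 68 tested as lower and 0 as higher, with medians of 36.5% and 40.6% in WT and 50.2% in line 1. Rpl3 was at 85.1% and 78.3% in WT and 99.1% in line 1. Eef1a1 and many ribosomal protein genes have near-identical processed copies, so read assignment could affect their values.

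Genes of glycolysis stood on the other side in line 1. Over 18 genes the medians were 36.2% and 36.3% in WT, 72.9% in line 1 and 0% in line 2. Line 1 was at least 25 points above WT in 9 genes and below in 0, while line 2 was at least 25 points below in 13, against 26.4% of all genes, and above in 0. Limma on all 4 libraries called 3 of 16 tested as lower in KO and 0 as higher. Over all genes 1.84% were that far above and 21.6% that far below in line 1, and limma called 76.0% of those tested as lower. Slc2a1, the glucose transporter GLUT1 (chr4:119108745-119137330), was at 38.7% and 34.95% in WT and 96.6% in line 1. Pgk1, phosphoglycerate kinase, was at 57.4% and 53.3% in WT and 95.9% in line 1. Gapdh was at 9.29% and 0% in WT and 80.3% in line 1. In each of these line 1 lay beyond both WT libraries and line 2 was at 0. Gpi1, the isomerase of the second step, was near equal at 92.4% and 92.6% in WT and 93.2% in line 1.

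The same held for genes known to respond to low oxygen, a list written after values were seen and sharing 5 members with it: Slc2a1, Pgk1, Hk2, Eno1 and Ldha. Over 26 genes the medians were 35.8% and 37.5% in WT, 73.3% in line 1 and 0% in line 2, with 14 above and 1 below by at least 25 points in line 1, against 1.84% and 21.6% of all genes. Limma called 2 of 25 tested as lower and 0 as higher, against 76.0% and 0.095% of all genes tested. Bnip3, a mitophagy receptor (chr7:138890836-138909506), was at 32.9% and 32.4% in WT and 99.3% in line 1. Ndrg1, a stress-responsive gene (chr15:66929318-66969641), was at 34.9% and 35.3% in WT and 98.2% in line 1, where a single peak of 38951 bp lay over most of its 40324 bp. Egln3, an oxygen-sensing hydroxylase, was at 20.8% and 23.6% in WT and 91.2% in line 1. The gene at least 25 points below was Plod1, a collagen hydroxylase, with 65.3% and 74.1% in WT and 7.22% in line 1. With shortened WT lists Plod1 lay above WT. By any amount, 4 of the 26 were below both WT libraries in line 1. Among these was Kdm3a, at 91.4% and 93.3% in WT and 76.0% in line 1, or 19.5% there with a −log10 q of at least 3. A promoter window of 250 bases before to 50 after the start was matched for 22 of the 26 genes, and all 22 held ACGTG or GCGTG on either strand, the core letters of the hypoxia response element. The share over 17492 protein-coding genes was 52.3%, and over the genes at least 25 points above WT in line 1 it was 59.1%. Within the list, the 12 matched members above WT in line 1 and the other members held it alike. The list consists of genes known to respond to low oxygen, so this share describes the list and not line 1.

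Short, rapidly induced genes were another such group. Of 21 immediate early genes the medians were 0% in both WT libraries, 48.8% in line 1 and 0% in line 2, and line 1 was at least 25 points above WT in 8 and below in 1, against 1.84% and 21.6% of all genes. Limma called 3 of 15 tested as lower and 0 as higher, against 76.0% and 0.095% of all genes tested. Ier2 (chr8, 1522 bp long) was at 0% in both WT libraries and 92.8% in line 1, but no peak there reached a −log10 q of 3. Junb and Jun, subunits of the AP-1 factor, were at 0% in WT and 84.95% and 68.2% in line 1, with and without that limit. Fos, their partner, was the gene below WT, at 38.6% and 31.8% in WT and 0% in line 1. Over the 403 genes above WT in line 1 the median length was 9.71 kb, against 22.7 kb for genes at least 25 points below and 17.2 kb for all genes.

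Extracellular matrix genes included some of the highest cover of line 1. Line 1 was at least 25 points above WT in 8 of 31 genes and below in 5, against 1.84% and 21.6% of all genes, with medians of 45.4% and 41.2% in WT and 47.6% in line 1. Limma called 7 of 28 tested as lower and 0 as higher, against 76.0% and 0.095% of all genes tested. Fn1, fibronectin (chr1:71585473-71653280), was at 94.6% and 95.1% in WT and 97.4% in line 1, and there it carried the widest peak of that library, 66058 bp. Col6a1, a chain of collagen VI, was at 18.6% and 7.97% in WT and 91.0% in line 1. The basement membrane genes Col4a1 and Lamb1 were instead lower in line 1. Col4a1 was at 41.0% and 40.4% in WT and 0% in line 1, and Lamb1 was at 75.8% and 77.2% against 21.6%, a direction that reversed with shortened WT lists. Mmp2, a secreted protease of the matrix that was in no list and is named for its high cover in line 1, was at 3.08% and 0% in WT and 96.3% in line 1. Of 25 cytoskeleton and adhesion genes, 4 were below and 3 above by the same gap. In this list limma called 5 of 23 tested as lower and 0 as higher, against 76.0% and 0.095% of all genes tested. Myh9, non-muscle myosin, was at 46.2% and 45.2% in WT and 88.5% in line 1.

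**Figure D4:**
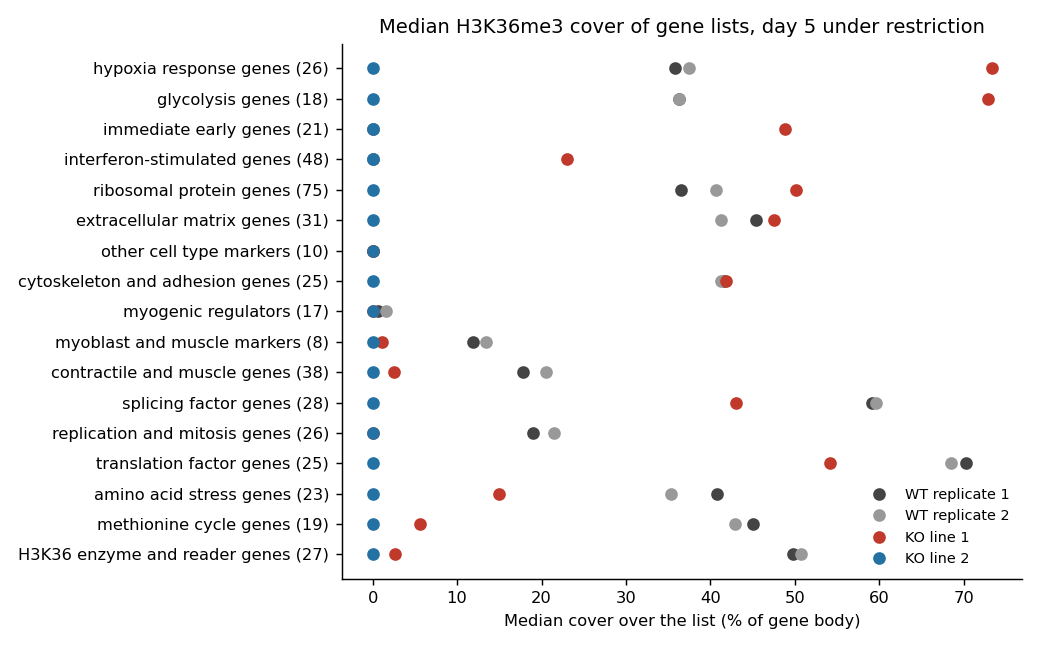
Median cover of the genes of each list, in percent of the gene body, 1 point per library, with the number of genes in brackets; points at the same value hide each other, and line 2 is at 0 in every list. Line 1 lies above both WT libraries for hypoxia response, glycolysis, immediate early, interferon-stimulated, ribosomal protein and extracellular matrix genes and, by less than 1 point, for cytoskeleton and adhesion genes, and farthest below for H3K36 enzymes and readers.

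The 8 largest excesses of line 1 were in 7 olfactory receptor genes and in Ifi44, an interferon-stimulated gene. With a −log10 q of at least 3, Olfr794 and Olfr812 of these had no peak in line 1, while Ifi44 kept 97.7%. Genes of that kind are switched on by interferons, secreted antiviral signals. The list of 48 interferon-stimulated genes was written after their values were seen and is given as description. Their medians were 0% in both WT libraries, 23.0% in line 1 and 0% in line 2, and line 1 was at least 25 points above WT in 20 and below in 0, against 1.84% and 21.6% of all genes. Counting peaks from a −log10 q of 3 upward, 15 were above, against 1.17% of all genes. On all 4 libraries limma called 2 of 27 tested as lower and 0 as higher, against 76.0% and 0.095% of all genes tested. Ifi44 (chr3:151730922-151749910) and Oasl2 (chr5:114896926-114912245), both antiviral effector genes, had no WT peak and were covered to 97.7% and 97.4% in line 1. Isg15, a ubiquitin-like modifier, Bst2, which tethers viruses to the cell, and Ifit1, which binds foreign RNA, were at 0% in WT and 93.8%, 91.9% and 90.9% in line 1. Irf7, a transcription factor of the pathway, was partly covered in WT, at 31.4% and 29.5%, and reached 100% in line 1. Irf9, another factor of the pathway, was at 83.2% and 83.3% in WT and 79.8% in line 1, but 38.2 points above the WT mean once the WT lists were shortened. In line 2 the highest cover in the list was 1.18%, in Oasl2, but Ly6e, an interferon-stimulated gene outside the list, was at 35.1%.

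The excess did not extend to the whole list. In line 1, 13 of the 48 genes had no peak, among them Oas1a, Oas2 and Oas3, which make the messenger of the RNase L pathway, the proteasome subunits Psmb8 and Psmb9, the peptide transporter Tap1 and the chemokines Cxcl10 and Ccl5. Promoter windows were matched for 38 genes. They were searched on both strands, overlaps allowed, for GAAANNGAAA, the core of the interferon-stimulated response element that factors activated by interferon bind. It was found in 19 of the 38 genes (50%), against 3.94% of all 17492 protein-coding genes with a window and 11.2% of the 313 matched genes above WT in line 1. Within the list it occurred in 7 of 16 genes above WT in line 1 and in 12 of 22 others. The others include both covered and uncovered genes, and no difference between these shares was tested. Stretches upstream of the start are shown for 3 genes with high line 1 cover and for 2 without a peak, 5′ to 3′ on the gene's strand, from RefSeq on GRCm38.p6, with matches to the motif on either strand in capitals.
Isg15, chr4:156200830-156200941, minus strand: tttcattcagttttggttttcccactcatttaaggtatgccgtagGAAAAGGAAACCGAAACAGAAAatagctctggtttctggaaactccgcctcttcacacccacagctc
Bst2, chr8:71537542-71537647, minus strand: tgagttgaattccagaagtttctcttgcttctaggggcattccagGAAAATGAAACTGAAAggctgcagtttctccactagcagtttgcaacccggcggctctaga
Ifit1, chr19:34640740-34640858, plus strand: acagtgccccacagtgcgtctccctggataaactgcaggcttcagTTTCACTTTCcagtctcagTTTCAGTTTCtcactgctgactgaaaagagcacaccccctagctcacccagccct
Oas1a, chr5:120907526-120907590, minus strand: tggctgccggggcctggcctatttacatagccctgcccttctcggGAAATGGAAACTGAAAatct
Cxcl10, chr5:92349048-92349139, minus strand: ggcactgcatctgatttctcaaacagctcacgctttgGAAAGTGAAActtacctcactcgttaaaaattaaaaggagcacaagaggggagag
The upstream region of Isg15 holds 3 overlapping matches, Bst2 and Oas1a 2 overlapping ones, Ifit1 a separate pair and Cxcl10 a single match.

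The same gap was counted in control medium at day 5. In control medium line 1 was at least 25 points above both WT libraries of that medium in 140 genes (0.64%), and 89 of the 403 genes of the restricted medium were among them. Of the 48 interferon-stimulated genes, 20 were above in each medium, and Isg15 was at 96.0% in line 1 and 0% in both WT libraries in control medium. Of 18 glycolysis genes 9 were above under restriction and 0 in control medium, and of the hypoxia response genes 14 and 1. These counts are bounded by the ceiling of 100%: a gap of 25 points was possible for 16 glycolysis genes under restriction but for 8 in control medium, and for 25 and 9 hypoxia response genes. For the interferon-stimulated genes it was possible in 47 and 45. The glycolysis medians in control medium were 78.4% and 74.2% in WT and 83.1% in line 1, against 36.2% and 36.3% in WT and 72.9% in line 1 under restriction. The glycolysis medians of the media were therefore farther apart in WT than in line 1. For immediate early genes the WT medians were 59.9% and 66.6% in control medium and 0% under restriction. The difference between media in the gap of line 1 to WT was not tested, since line 1 has 1 library in each. At day 0, Ifi44, Oasl2, Isg15 and Irf7 had no peak in line 1.

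**Figure D5:**
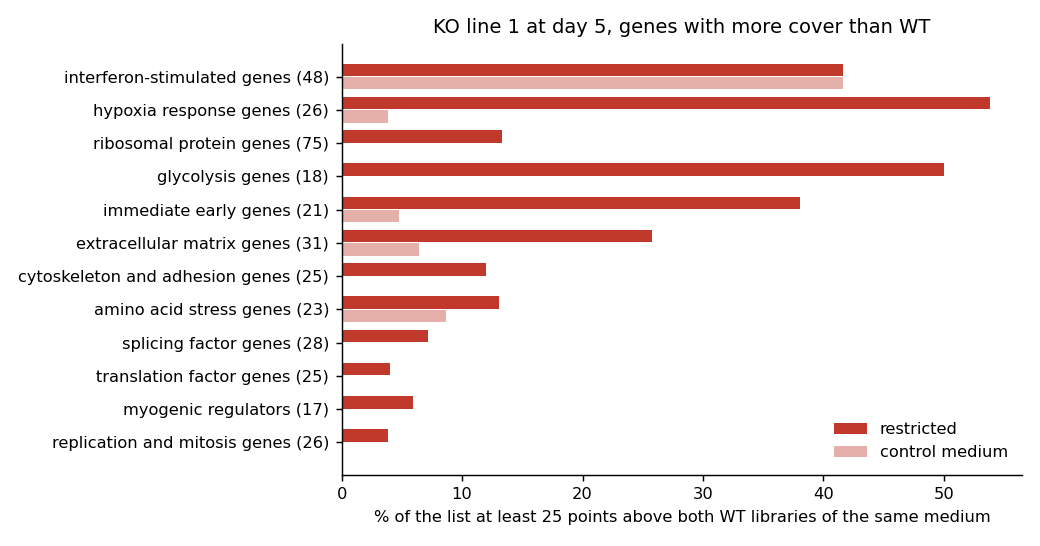
Percent of the genes of each list at least 25 points above both WT libraries of the same medium in KO line 1 at day 5, with the number of genes in brackets; dark bars are restricted and pale bars control medium, and lists with no such gene in either medium are left out. Interferon-stimulated genes reach the same count, 20 of 48, in both media, and glycolysis genes number 9 of 18 and 0, where WT cover left room for a 25-point gap in 16 and 8 genes.

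Line 2 held few genes of any kind. The 6 genes with its highest cover, named for these values, were led by 4 olfactory receptor genes in a cluster on chromosome 10. Olfr809, Olfr811 and Olfr808 were covered to 97.5%, 92.6% and 81.8% in line 2, and Olfr810 to 43.1%. All 4 were at 0% in WT and 100% in line 1. Each is under 1 kb long, so 1 peak can span it, and genes of this family share close copies that reads may not tell apart. Over 1110 olfactory receptor genes, 2 and 1 had any WT peak, 15 had one in line 1 and 5 in line 2. Over all protein-coding genes 45.5% and 45.6% had a peak in WT, 28.3% in line 1 and 4.38% in line 2, so genes of this family with a peak were few in each library. The next was Ly6e, an interferon-stimulated membrane protein, at 22.2% and 14.1% in WT and 88.0% in line 1. The last was 1700042G07Rik, a gene of 926 bp, at 32.5% in line 2 and 0% in the other 3 libraries. With a −log10 q of at least 3, Olfr811 kept 92.6% in line 2 and the other 5 had no line 2 peak.

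Among the 8 genes that limma called higher in KO, WT had no peak in any. They were Olfr808, Olfr809, Olfr811, Atp8b4, Mme, Ptx3, Usp17la and Gm52030. Each thus passed the filter on mean cover through its KO cover alone, with no spread between the WT libraries. For these 8 genes the filter and the test therefore drew on the same KO values, and the calls are given as description. Ptx3, a secreted pattern recognition protein, was at 25.1% in line 1 and 29.2% in line 2, but its whole body overlaps another gene, and no line 1 peak on it reached a −log10 q of 3. Mme, the cell surface peptidase neprilysin, was at 17.8% and 15.1%, and Atp8b4, a lipid flippase, was at 8.25% and 12.6%. For all 8 genes both lines lay above both WT libraries at the authors' threshold. With a −log10 q of at least 3, Olfr808, Olfr809, Mme, Ptx3 and Gm52030 had no line 2 peak. Atp8b4, Usp17la and Olfr811 kept 1.67%, 5.27% and 92.6% in line 2.

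The cover of line 2 was denser in gene-poor than in gene-rich windows. In 1 Mb windows less than 25% genic, its mean cover was 0.424%, against 0.156% in windows at least 50% genic. In WT the order was the opposite, with 0.540% and 0.557% in gene-poor and 7.95% and 8.13% in gene-rich windows, and line 1 followed WT with 0.630% and 2.30%. The window with the most line 2 cover, chr16:86000001-87000000, held 11.9% in line 2, 2.39% in line 1 and 0% in WT, and no protein-coding gene. The next, chr15:43000001-44000000, held 11.1% in line 2, 21.3% in line 1 and 3.91% and 4.28% in WT, and it includes Eif3e and Rspo2. Windows chr1:141000001-142000000 and chr1:145000001-146000000 held 10.2% and 8.49% in line 2, 7.57% and 9.34% in line 1 and 0% in WT. The widest line 2 peak, 9369 bp at chr1:145943553-145952921, lay in the second of these and touched no annotated gene.

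By chromosome, with Y left aside because it had almost no peaks in any library, line 2 cover ran from 0.0427% on chromosome 17 to 0.894% on chromosome 15, with 0.0433% on X. Line 1 was also highest on chromosome 15, at 3.35%, and lowest on X, at 0.202%. In WT chromosome 11 was highest, at 8.35% and 8.50%, and X lowest, at 1.40% and 1.46%. Chromosome 7 had 0.0532% in line 2 although WT covered 4.98% and 5.11% of it.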

How the data were processed

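The files were peak lists of 9 columns, 1 per library, on chromosomes 1 to 19, X and Y. The authors' deposited lists give each peak a score, a fold enrichment and −log10 p and q values. Only −log10 q was used to filter peaks, the lowest being 1.00, and the fold of a peak is the authors' own value. The score was not used here. Reads were placed on GRCm38, per the submitters' processing notes. The peak caller and its control are not given in the sources used here. Drosophila chromatin was added as a spike-in, per the labels' protocols, but no scaling was applied here, and the input was not analysed here. Peak names inside the lists call the KO libraries replicates 1 and 2 of 1 group, whereas the labels give separate lines, and the labels were followed.

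Overlapping or touching peaks of a library were merged with Python 3.11.15 and pandas 2.3.3, and cover was computed over RefSeq genes of GRCm38.p6. Library values were compared by exact permutation tests. Genes whose mean cover reached 5% were tested with limma 3.58.1 in R 4.3.3 (lmFit, eBayes with trend and robust settings, Benjamini-Hochberg adjustment over all genes tested, threshold 0.05). The interval arithmetic and the limma step were tested on simulated data. Depth is unknown, so no counting interval is given. Alternatives were stronger peaks, merging within 1 kb, WT lists shortened to the line 1 length, each WT replicate left out, other filters, gaps and scales.

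Named genes are Setd2; the 12 genes of at least 2 kb with the highest line 1 cover; the 6 longest at 90% or more in both WT libraries and 0 in both lines; the 8 with the largest line 1 excess; the 6 highest in line 2; and the 3 highest in WT and the highest in line 1 of each list. Others, and the interferon and hypoxia lists, were named after values were seen, and not all are printed; some are not reported here. Libraries and lists were chosen with earlier results of these data known.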

Additional observations from a re-analysis of the deposited data

Results flagged for a closer look

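In intergenic sequence the gap of line 1 to WT pointed in opposite directions in the media at day 5. Under restriction line 1 was 0.359 points above the WT mean, at 0.706% against 0.341% and 0.354%. In control medium its difference from the WT mean was -0.0459 points, at 0.501% against 0.570% and 0.525%. Each line 1 library lay outside both WT libraries of its medium, and the difference was not tested. The restricted gap depended on which peaks were counted. With a −log10 q of 3 or more, line 1 was at 0.169% against 0.214% and 0.227% in WT, below both. With the WT lists shortened, which removes WT peaks only, line 1 was at 0.706% against 0.0969% and 0.101%.

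In 99 genes line 1 was at least 25 points above both WT libraries and line 2 at least 25 points below both. These are 24.6% of the 403 genes above in line 1, near the 26.4% of all genes that far below in line 2. Irf7, Bnip3, Ndrg1 and Slc2a1 were among them, with line 2 at 0 in each. With 1 library a line the difference between the lines was not tested.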

How the results depend on the processing

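No paired analysis was possible because both KO libraries carry replicate number 1. Depth is unknown and limits every statement on lost peaks. Requiring a −log10 q of at least 3 reversed the intergenic log2 ratio of WT over KO from -0.50 to 1.696. It took the genes with more cover in KO by limma from 8 to 1, those at least 25 points above WT from 403 to 256 in line 1 (222 of them shared) and from 7 to 1 in line 2, and the share of line bases in both WT libraries from 34.3% to 41.0% (line 1) and from 0.721% to 3.23% (line 2). Shortening the WT lists to the line 1 length took the genes with less cover from 6399 to 1484, those at least 25 points below WT from 4720 to 1524 (line 1) and from 5772 to 1996 (line 2), those above in line 1 to 850, and the shares to 17.5% and 0.202%. Line 1 minus WT changed sign in 14 of 83 named genes, 5 of them past the 25-point gap before: Lamb1 (to 6.73 points), Plod1 (7.22), Mcm6 (31.0), Rpsa (41.7) and Sf3b1 (0.58). Among the others Eif2ak2 went from -5.87 to 51.6 and Des from -3.61 to 39.65; shortened lists hold fewer WT peaks by construction. Genes with more cover in KO numbered 5 at 2 kb or longer, 48 with no filter, 63 with all 20 libraries fitted, 776 and 17 for line 1 and line 2 alone (1 library each, assumed to vary like the WT pairs, so no measure of spread within a line), 16 on the arcsine scale, and 0 without either WT replicate (limma, 1 at an unadjusted p under 0.05). A gap of 10 points gave 820 genes above in line 1 and 28 in line 2. A gap of 50 gave 2276 below and 125 above in line 1, and 3095 below and 3 above in line 2. At 2 kb or longer 1 gene was above in line 2. The shares of line 1 and line 2 bases were 41.5% and 1.20% for either WT library, 36.3% and 0.683% with peaks merged within 1 kb, 37.5% to 38.3% and 0.918% to 1.01% without a WT replicate, and 25.7% and 0.973% of peaks with at least 50% of their length inside. Covered length, coding cover and the number of marked genes kept their direction under each alternative run.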
